A study of Mus musculus with 8 samples.

Results

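Genes that make cholesterol and fatty acids were examined in mouse embryonic fibroblasts that carry or lack the transcription factors STAT5A and STAT5B. The 32 genes were chosen by their place in these pathways, with earlier results of these data known. Their counts beside those of all genes are therefore descriptions. Expression was taken from the probe sets that the annotation of the Affymetrix whole-genome mouse array assigns to each gene alone. For 31 of the 32, out of 18193 genes measured in all, such a probe set was found, and Acat2, whose product condenses acetyl-CoA, was not measured. RNA came from cells of C57BL/6 background at passage 13. Every culture, controls included, was starved for 5 hours and then kept for 2 hours either without growth hormone (GH) or with 1 ug/ml of it. Wild type (control) and Stat5a/b-null cells were each studied in both GH states, which gave 4 groups of 2 arrays. Per the labels the arrays of a group are biological replicates. No label names a separate embryo or culture for each, so p-values measure only the spread between these arrays, which may be technical. No label gives the number of embryos behind a genotype, the species of the hormone or the deleted part of the genes.

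Cholesterol is built from acetyl-CoA. The mevalonate pathway makes isoprenoid units, these are joined to squalene, squalene is closed to lanosterol, and a series of reactions turns lanosterol into cholesterol. Fatty acids are built from the same acetyl-CoA by carboxylation, repeated condensation, elongation and desaturation. Both pathways are under the control of the sterol regulatory element binding proteins, made from Srebf1 and Srebf2. They are held in the endoplasmic reticulum with their escort SCAP by the INSIG proteins while sterols are plentiful, and are released as transcription factors when sterols run low. SREBP2 acts mainly on cholesterol genes and SREBP1 mainly on fatty acid genes, and both bind promoters together with NF-Y, a factor that recognises the CCAAT box. Fibroblasts in culture make and import cholesterol for their membranes.

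Promoter sequence from RefSeq (mouse build GRCm38.p6) was held for 26 of the 32 genes, each window running from 250 bases before a transcription start to 50 after it. The windows were searched on both strands for the CCAAT box, for TCACNCCAC, the core of the sterol regulatory element, and for TTCNNNGAA, the site that STAT proteins bind. A CCAAT box stood in at least 1 window of 22 of the 26 genes (84.6%), against 42% of the 14452 array genes with a window. By window, since 6 of the genes have several, the box was in 23 of 35 (65.7%), against 37.4% of all 32851 windows. The sterol element core was matched exactly in Hmgcs1 alone, 1 of 26 (3.85%), against 1.46% of array genes. The STAT site was found in Ebp alone, 1 of 26 (3.85%), against 8.57%. A match describes letters in a window and is not evidence of binding. Shown here are 5 promoters that stand for the range of responses described below. Hmgcs1 has the exact sterol element, and Idi1 is among the genes with the largest genotype difference. Msmo1 and Hsd17b7 passed the test for a difference in GH response between the genotypes. As described below, these calls were lost in most fits that left out 1 array. Elovl6 had a large genotype difference and no box. Each is printed 5′ to 3′ for the 250 bases before the start, with the CCAAT box (ATTGG on the other strand) and the sterol element in capitals.
Hmgcs1, chr13:119690101-119690350, plus strand: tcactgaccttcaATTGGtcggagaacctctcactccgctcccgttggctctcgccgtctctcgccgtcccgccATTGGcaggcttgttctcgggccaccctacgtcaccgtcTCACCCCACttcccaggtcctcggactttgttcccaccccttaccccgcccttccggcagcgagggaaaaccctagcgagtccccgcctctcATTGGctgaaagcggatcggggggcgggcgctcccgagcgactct
Idi1, chr13:8885356-8885605, plus strand: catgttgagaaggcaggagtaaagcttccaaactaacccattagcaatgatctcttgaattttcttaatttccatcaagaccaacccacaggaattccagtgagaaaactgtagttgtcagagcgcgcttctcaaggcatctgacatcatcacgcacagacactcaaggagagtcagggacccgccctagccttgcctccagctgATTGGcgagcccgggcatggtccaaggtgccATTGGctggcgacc
Msmo1, chr8:64733579-64733828, minus strand: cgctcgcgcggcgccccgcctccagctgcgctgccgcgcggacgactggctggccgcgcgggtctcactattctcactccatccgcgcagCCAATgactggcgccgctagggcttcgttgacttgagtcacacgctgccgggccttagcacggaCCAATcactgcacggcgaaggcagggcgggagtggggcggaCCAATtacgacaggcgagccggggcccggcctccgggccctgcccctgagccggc
Hsd17b7, chr1:169969206-169969455, minus strand: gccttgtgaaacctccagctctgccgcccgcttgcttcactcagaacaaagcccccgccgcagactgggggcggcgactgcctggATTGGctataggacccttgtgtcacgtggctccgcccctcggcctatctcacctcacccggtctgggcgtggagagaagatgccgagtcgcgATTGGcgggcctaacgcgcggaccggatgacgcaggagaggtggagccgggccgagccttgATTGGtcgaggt
Elovl6, chr3:129532136-129532385, plus strand: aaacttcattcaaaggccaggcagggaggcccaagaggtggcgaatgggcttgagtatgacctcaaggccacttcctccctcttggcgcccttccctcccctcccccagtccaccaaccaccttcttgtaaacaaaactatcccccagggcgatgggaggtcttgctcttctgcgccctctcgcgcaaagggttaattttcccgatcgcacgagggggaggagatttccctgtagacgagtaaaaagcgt
Hmgcs1 carries a further box just after the start, outside the printed stretch, and its sterol element overlaps none of the boxes. Hsd17b7, which was lower in null cells without GH, holds 3 boxes, as many as Msmo1.

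The values are log2 expression from the robust multi-array average (RMA). Differences are given on the log2 scale as estimate ± standard error (SE) from limma, fitted over all 8 arrays, and a gene was called when limma's p, adjusted over all 18193 genes by Benjamini and Hochberg, was below 0.05. The array medians of named probe sets lay between 7.41 and 7.46, the replicate arrays correlated at 0.997 or 0.998 over genes, and none of the 31 genes had a group mean under 6.1, the lower quartile over all genes and the level under which a probe set was treated as dim. The 12 fibroblast markers were above that level in every group. Without GH, 4 of them were higher and 2 lower in null cells, against 24.8% of all genes higher and 22.7% lower (22.2% and 23.1% with GH). Their log2 differences ran from -0.97 to 4.32 with a median of -0.01, and 3 were at least 2-fold higher and 0 at least 2-fold lower. Without GH their mean was 12.60 to 12.61 on control arrays and 13.39 to 13.50 on null arrays. With GH it was 12.68 to 12.70 and 13.44 to 13.50. The markers of other cells were compared in the same way. Each of the 10 markers of macrophages and leukocytes fell with the null genotype, with or without GH, with an array mean of 10.02 to 10.13 in control and 6.95 to 7.02 in null cells without GH, where Ptprc and Itgam were dim. Of 11 markers of cycling cells, 9 were higher in null cells with and without GH, with an array mean of 9.58 to 9.61 in control and 10.48 to 10.55 in null cells without GH. Of 6 adipocyte markers, 3 were higher and 1 lower in null cells without GH, while Adipoq, Cidec and Lep were dim in every group. The hepatocyte markers gave no call between the genotypes in either GH state, with 5 measured. The part of these markers in the results below was not tested. In RNA from whole cultures, fewer cells of a type and less RNA per cell cannot be told apart.

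Most lipid synthesis genes had higher expression in the null cells. In the absence of GH, 23 of the 31 were higher, 2 were lower and 6 did not pass the test, against a background of 47.5% of all genes called in this comparison, 24.8% higher and 22.7% lower. Their median log2 difference was 0.84, against 0.03 for all genes tested. At least 2-fold higher were 11 of them, 35.5% against 5.56% of all genes, and none was 2-fold lower. The arrays of the groups did not overlap for 27 genes (25 higher, 2 lower), while 68.8% of all genes had groups of 2 that did not overlap. With GH the same comparison gave 23 higher, 1 lower and 7 not past the test, against 45.3% of all genes called, 22.2% higher and 23.1% lower, and a median of 0.83 against -0.02. Here the arrays did not overlap for 28 genes, against 72.1% of all genes. The comparisons in the 2 GH states use different arrays. In both, 20 genes were higher and 1 was lower, while 3 were higher past the test only without GH, 3 only with GH, and 3 passed in neither. Hsd17b7 was lower past the test only without GH. Requiring a change of more than 1.5-fold left 15 genes without GH and 16 with GH, all higher in null cells. Over all 18193 genes it left 2605 without GH and 2423 with GH, in either direction.

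**Figure D1:**
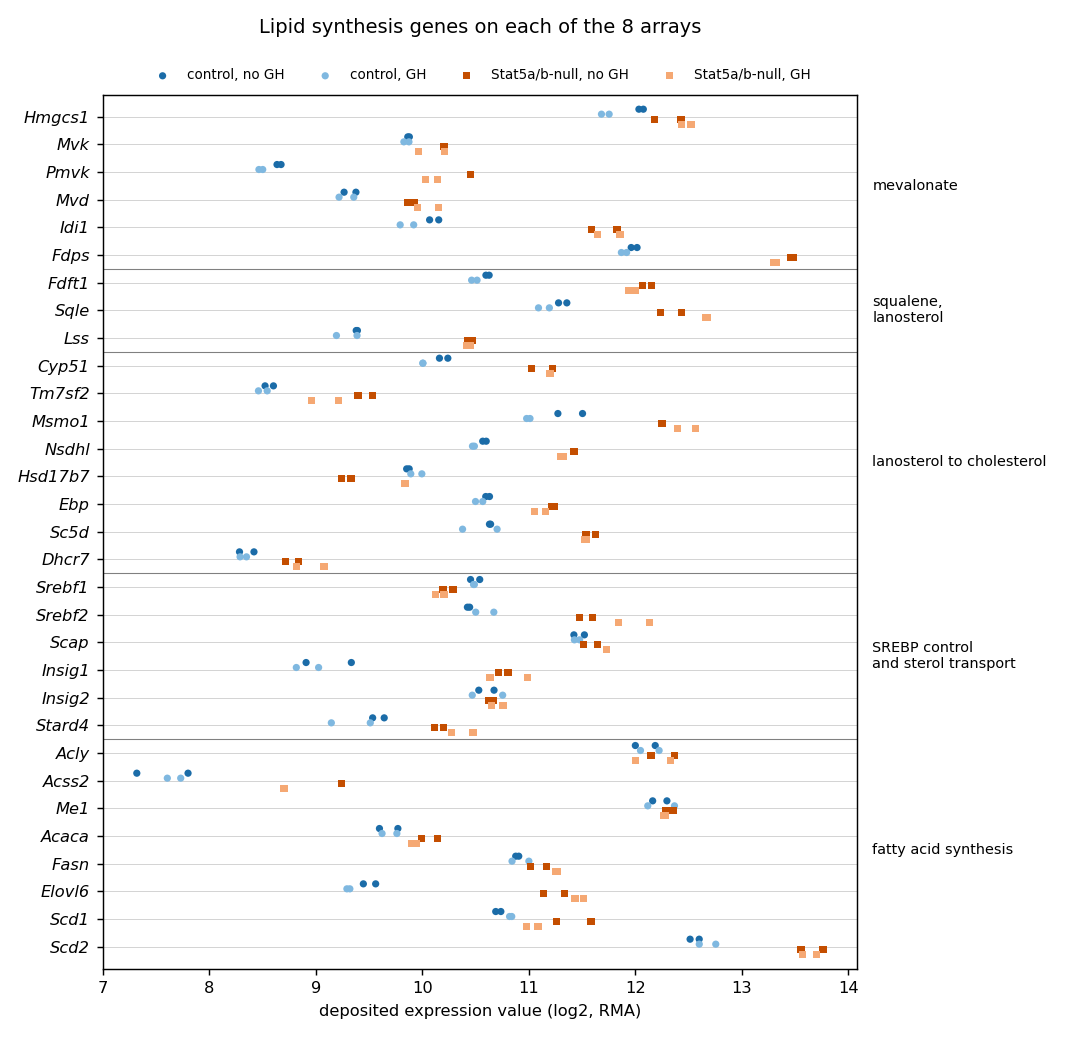
Expression (log2, RMA) of the 31 measured lipid synthesis genes on each of the 8 arrays, with 2 points per group, in the order of the pathway. For Fdps, Fdft1, Idi1, Pmvk and Elovl6 all null arrays lie to the right of all control arrays, while for Insig2, Me1 and Acly the groups overlap.

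The first steps, from acetyl-CoA to farnesyl diphosphate, were covered by 6 genes, of which 5 were higher in null cells without GH and 5 with GH (median differences 1.03 and 1.09). Pmvk, which encodes phosphomevalonate kinase, read 8.67 and 8.64 in control cells without GH, 8.50 and 8.47 with GH, 10.45 and 10.46 in null cells without GH and 10.03 and 10.14 with GH. All null arrays were above all control arrays, by 3.48-fold without GH (1.80 ± 0.09, adjusted p = 5.49e-09) and 3.04-fold with GH (1.60 ± 0.09, adjusted p = 1.57e-08). Idi1, the isomerase that readies isoprenoid units for joining, read 10.07 and 10.15 in control cells without GH, 9.92 and 9.79 with GH, 11.59 and 11.83 in null cells without GH and 11.86 and 11.65 with GH. Again the genotypes did not overlap, and the difference was 1.60 ± 0.11 without GH and 1.90 ± 0.11 with GH (adjusted p = 1.35e-07 and 3.11e-08). Fdps, the synthase of farnesyl diphosphate, stood between 11.87 and 12.02 on the control arrays and between 13.30 and 13.48 on the null arrays, 2.79-fold higher without GH and 2.67-fold with GH. Its other probe set was dim in all groups and showed no difference past the test (-0.13 ± 0.10).

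Smaller differences were seen at the steps around them. Mvd, the decarboxylase that ends the mevalonate steps, was 1.49-fold higher without GH (0.58 ± 0.10, adjusted p = 0.000369) and 1.70-fold with GH (0.77 ± 0.10). Mvk, mevalonate kinase, passed without GH (0.34 ± 0.10, adjusted p = 0.0120) but not with GH (0.23 ± 0.10, adjusted p = 0.0694), and its other probe set passed in neither state. Hmgcs1, the cytosolic HMG-CoA synthase, feeds this pathway. It read 12.08 and 12.03 in control cells without GH, 11.75 and 11.68 with GH, 12.18 and 12.43 in null cells without GH and 12.52 and 12.44 with GH. The null arrays were higher in each GH state, and the control arrays with GH were the lowest of the 8. The genotype difference did not pass without GH (0.25 ± 0.10, adjusted p = 0.0593, 95% interval 0.03 to 0.47) and passed with GH (0.76 ± 0.10, adjusted p = 4.37e-05). The brightest of its 5 probe sets gave the smallest difference without GH. In the fit over all probe sets the other 3 that were not dim passed, at 0.56, 0.61 and 0.67.

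Each of the 3 genes from farnesyl diphosphate to lanosterol was higher in null cells in both GH states. Fdft1, squalene synthase, read 10.60 and 10.63 in control cells without GH, 10.51 and 10.46 with GH, 12.07 and 12.16 in null cells without GH and 11.94 and 12.01 with GH. The genotypes were apart by 1.5 ± 0.09 without GH and 1.48 ± 0.09 with GH (adjusted p = 2.75e-08 and 3.13e-08). Of its 4 probe sets the 2 brightest passed, and the other 2, of mean level 6.60 and 6.46, did not. Sqle, squalene epoxidase, a rate-limiting step of the pathway, read 11.36 and 11.28 in control cells without GH, 11.09 and 11.19 with GH, 12.24 and 12.43 in null cells without GH and 12.67 and 12.66 with GH. Null arrays were thus above control arrays throughout, 2.02-fold without GH (1.01 ± 0.10) and 2.88-fold with GH (1.53 ± 0.10). For Lss, lanosterol synthase, the ratio was 2.09-fold without GH (1.06 ± 0.09) and 2.21-fold with GH (1.14 ± 0.09), and its 3 probe sets all passed without GH.

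From lanosterol to cholesterol, 7 of 8 genes were higher in null cells in either GH state. In order of their difference without GH these were Sc5d, a desaturase (0.95 ± 0.11), Cyp51, which removes a methyl group from lanosterol (0.93 ± 0.09), the reductase gene Tm7sf2 (0.90 ± 0.10), Msmo1, a methylsterol oxidase (0.86 ± 0.10), Nsdhl, a sterol dehydrogenase (0.84 ± 0.08), the isomerase gene Ebp (0.61 ± 0.09) and Dhcr7, a reductase that acts at the end of the pathway (0.43 ± 0.11). The first 5 lie within about 1 SE of their neighbours and are not ordered beyond their error. Their limma adjusted p ran from 3.31e-06 for Nsdhl to 0.00473 for Dhcr7. With GH, Msmo1 stood highest of them (1.49 ± 0.10), then Cyp51 (1.20 ± 0.09), and Ebp (0.57 ± 0.09) and Tm7sf2 (0.58 ± 0.10) lowest.

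Hsd17b7, a keto-reductase that acts with Msmo1 and Nsdhl in removing methyl groups and can also convert sex steroids, went the other way. It read 9.88 and 9.85 in control cells without GH, 9.89 and 10.00 with GH, 9.24 and 9.33 in null cells without GH and 9.83 and 9.84 with GH. Only the null arrays without GH stood apart, below the other 6. The genotype difference was -0.58 ± 0.09 without GH (1.49-fold lower, adjusted p = 0.000121) and -0.11 ± 0.09 with GH (adjusted p = 0.356). The 3 brightest of its 4 probe sets were all lower without GH, at -0.58, -0.85 and -0.90, and the fourth was dim in every group. With the second brightest probe set in place of the brightest, the gene was also lower with GH (-0.40, adjusted p = 0.00465).

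**Figure D2:**
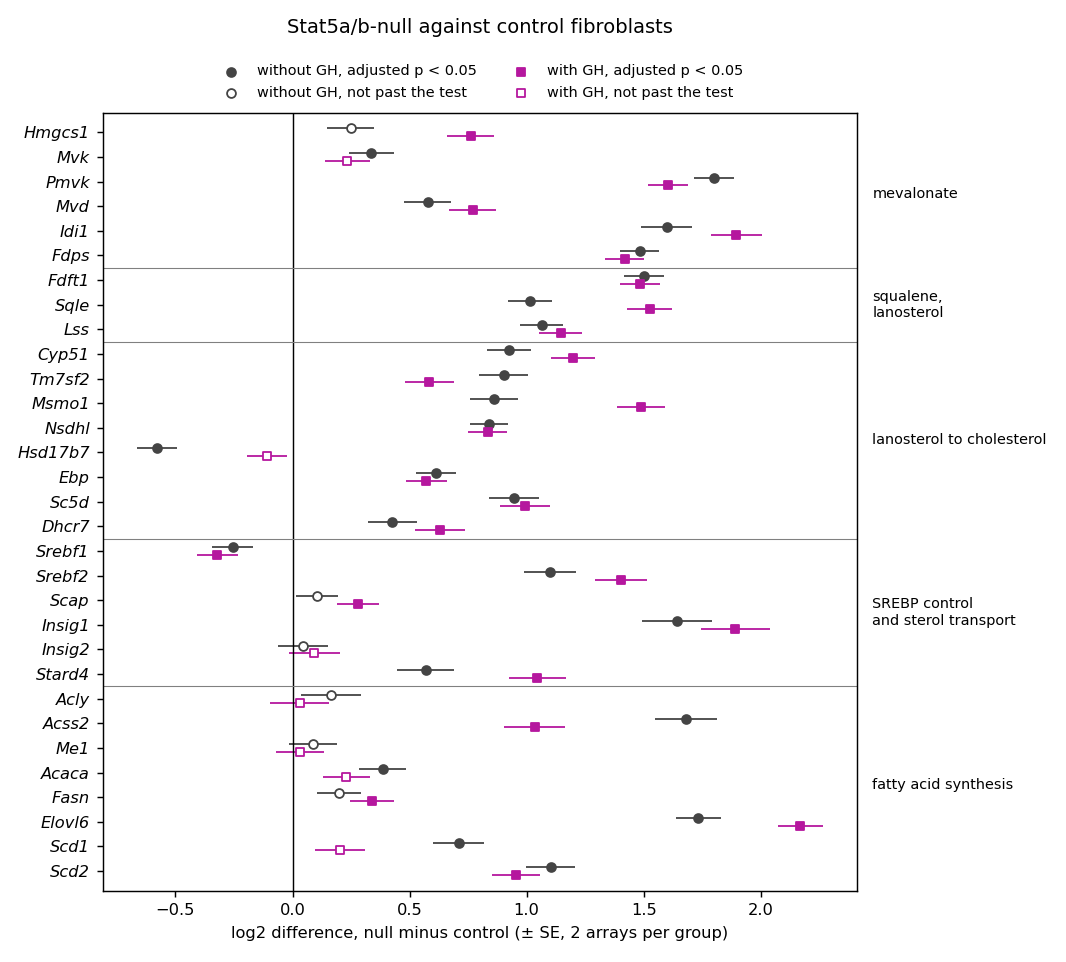
Log2 difference between Stat5a/b-null and control cells for each gene without GH (circles) and with GH (squares), with SE bars; filled symbols passed limma's test at an adjusted p below 0.05. Most symbols lie to the right of 0, and Hsd17b7 and Srebf1 lie to the left.

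The regulators split by paralog. Srebf2 read 10.44 and 10.42 in control cells without GH, 10.67 and 10.50 with GH, 11.47 and 11.59 in null cells without GH and 11.84 and 12.13 with GH. All null arrays exceeded all control arrays, 2.14-fold without GH (1.10 ± 0.11, adjusted p = 3.97e-06) and 2.64-fold with GH (1.40 ± 0.11, adjusted p = 4.94e-07), and its other probe set gave 1.24 and 1.41. Srebf1 was lower, at 10.54 and 10.45 in control cells without GH, 10.49 and 10.48 with GH, 10.19 and 10.29 in null cells without GH and 10.12 and 10.20 with GH. The groups did not overlap but lay close, 1.19-fold lower without GH (-0.26 ± 0.09, adjusted p = 0.0303) and 1.25-fold lower with GH (-0.32 ± 0.09, adjusted p = 0.00915). The Srebf1 call did not hold in 4 of the 8 fits that left out 1 array without GH (differences from -0.26 to -0.21, adjusted p up to 0.148), nor in 3 of 8 with GH (-0.33 to -0.28, adjusted p up to 0.0644). These were the fits without either control array with GH or without null replicate 2 of the state compared, and, without GH, also the fit without control replicate 2.

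Among the proteins that hold or escort SREBP, Insig1 was higher in null cells and Insig2 did not pass the test. Insig1, itself a known target of SREBP, read 8.91 and 9.33 in control cells without GH, 9.03 and 8.82 with GH, 10.72 and 10.81 in null cells without GH and 10.99 and 10.64 with GH. The genotypes were 3.12-fold apart without GH (1.64 ± 0.15) and 3.71-fold with GH (1.89 ± 0.15), and no arrays overlapped. Insig2 ranged from 10.47 to 10.75 in control and from 10.63 to 10.76 in null cells, and its 3 probe sets all failed to pass without GH. Its difference was 0.05 ± 0.11 without GH (95% interval -0.19 to 0.28) and 0.09 ± 0.11 with GH (-0.14 to 0.33), intervals whose upper ends lie below the difference of Insig1. Scap did not pass without GH (0.10 ± 0.09) and was slightly higher with GH (0.28 ± 0.09, adjusted p = 0.0225). That call was lost on leaving out any 1 of the 4 arrays with GH (0.25 to 0.30, adjusted p up to 0.129). The second probe set of Scap, of mean level 6.44, did not pass without GH (-0.25). In the fit over all probe sets it passed with GH (0.47, adjusted p = 0.00189). Stard4, a carrier that moves sterol between membranes, was 1.48-fold higher without GH (0.57 ± 0.12) and 2.06-fold with GH (1.05 ± 0.12), and all 3 of its probe sets passed without GH.

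In fatty acid synthesis, 5 of 8 genes were higher in null cells without GH and 4 with GH, and none was lower. Acly, which splits citrate to acetyl-CoA, ranged from 12 to 12.22 in control and from 12.01 to 12.37 in null cells (0.16 ± 0.13 without GH, 95% interval -0.11 to 0.44). Me1, malic enzyme, a source of NADPH, differed by 0.09 ± 0.10 (95% interval -0.13 to 0.31). Acaca, acetyl-CoA carboxylase, passed without GH (0.38 ± 0.10, adjusted p = 0.00628) and not with GH (0.23 ± 0.10), whereas Fasn, fatty acid synthase, passed with GH (0.34 ± 0.09, adjusted p = 0.00990) and not without it (0.20 ± 0.09). Each of these calls failed when an array of its state was left out, Acaca without control or null replicate 3 (from 0.30, adjusted p up to 0.0585) and Fasn likewise (from 0.26, adjusted p up to 0.119). The Acaca call was also lost with its second probe set, of mean level 6.28 (0.03, adjusted p = 0.855), and with the mean of both (0.21, adjusted p = 0.0752). The second brightest probe set of Acly passed without GH (0.39).

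Elovl6, which lengthens palmitate, read 9.56 and 9.45 in control cells without GH, 9.32 and 9.29 with GH, 11.14 and 11.34 in null cells without GH and 11.43 and 11.51 with GH. That was 3.33-fold without GH (1.73 ± 0.10, adjusted p = 2.14e-08) and 4.5-fold with GH (2.17 ± 0.10, adjusted p = 2.93e-09), and in both states no array of one genotype reached the other. Scd2, a desaturase that makes oleate and palmitoleate outside the adult liver, stood between 12.52 and 12.76 on control and between 13.56 and 13.76 on null arrays, 2.15-fold higher without GH and 1.94-fold with GH. Its paralog Scd1 read 10.74 and 10.69 in control cells without GH, 10.84 and 10.82 with GH, 11.26 and 11.59 in null cells without GH and 11.09 and 10.98 with GH. Scd1 was higher without GH (0.71 ± 0.11, adjusted p = 0.000139) and did not pass with GH (0.20 ± 0.11, adjusted p = 0.158), although its second probe set did (0.57). Acss2, which makes acetyl-CoA from acetate, read 7.80 and 7.32 in control cells without GH, 7.73 and 7.6 with GH, 9.24 and 9.24 in null cells without GH and 8.71 and 8.69 with GH. All null arrays were higher, 3.21-fold without GH (1.68 ± 0.13) and 2.05-fold with GH (1.03 ± 0.13). The second probe set of Acss2 gave 1.42 without GH, but the third, of mean level 6.81, was lower in null cells (-0.49, adjusted p = 0.0138), the only case in which probe sets of a gene passed in opposite directions.

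**Figure D3:**
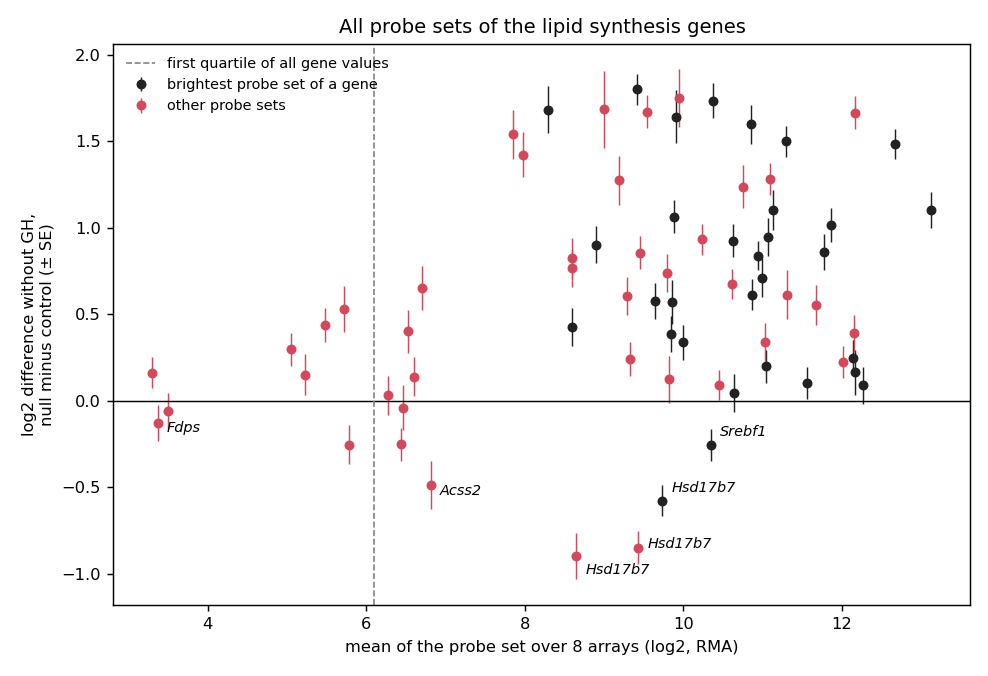
Log2 difference between null and control cells without GH, with SE, for all 72 probe sets of the 31 genes against the mean level of the probe set (log2, RMA). Probe sets left of the dashed line (the lower quartile over all genes, 6.1) lie between -0.25 and 0.53, and the probe sets of Hsd17b7 and the third of Acss2 lie below 0.

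Of the 22 genes with several probe sets, 13 had all probe sets that were not dim past the test in the same direction without GH. Fdps and Msmo1 are among the 13 with only 1 probe set that was not dim, so for them agreement could not be judged. The same count was not made over all genes. Of the 72 probe sets, 8 were dim in 1 or more groups.

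GH for 2 hours changed no lipid synthesis gene past the test in control cells. None of 31 was called by limma, against 2.62% of all genes (1.72% higher, 0.896% lower), and 3 had an unadjusted p below 0.05 (9.68% against 10.3% of all genes). Most other settings of the test also called none. With dim genes left out 1 gene passed and with trended, robust variances 2 did, all lower with GH. The largest fall was that of Msmo1, from 11.27 and 11.50 to 11.01 and 10.98 (-0.39 ± 0.10, adjusted p = 0.0755), and Msmo1 passed when control replicate 2 without GH was left out (-0.51, adjusted p = 0.0353). Hmgcs1 gave -0.34 ± 0.10 (adjusted p = 0.146). Of the 17 cholesterol synthesis enzymes, 16 had a negative estimate, with a median of -0.10, the exception being Hsd17b7. Under both other scalings of the arrays 16 were again negative. Over all genes 56.3% of estimates were negative, with a median of -0.02. The groups did not overlap for 16 of the 31 genes, 4 higher and 12 lower, against 38.5% of all genes. Of the 8 fatty acid genes, 7 had a positive estimate, or 5 with the arrays centred on their medians (median 0.04 and 0.01).

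In null cells 7 genes passed for GH, 3 higher and 4 lower, against 11.7% of all genes called (5.36% higher, 6.35% lower), and 24 did not. The groups did not overlap for 19 genes, against 55.1% of all genes. Hsd17b7 rose 1.46-fold (0.55 ± 0.09, adjusted p = 0.00170) to 9.83 and 9.84, just under the control arrays at 9.85 to 10.00. Srebf2 rose 1.37-fold (0.45 ± 0.11, adjusted p = 0.0212) and Sqle 1.26-fold (0.33 ± 0.10, adjusted p = 0.0419). Acss2 fell 1.45-fold (-0.54 ± 0.13, adjusted p = 0.0208), Scd1 1.31-fold (-0.39 ± 0.11, adjusted p = 0.0375), Tm7sf2 1.30-fold (-0.38 ± 0.10, adjusted p = 0.0365) and Pmvk 1.29-fold (-0.37 ± 0.09, adjusted p = 0.0169). These comparisons use the null arrays without GH that also enter the genotype comparison without GH. Of the 7 calls, that of Hsd17b7 held when any 1 array was left out (0.51 to 0.59, adjusted p up to 0.0236). The second probe set ended the Srebf2 call (0.21, adjusted p = 0.342) and the Scd1 call, and repeated quantile normalization ended the Sqle call (adjusted p = 0.0535). Scap, not called by its brightest probe set, was higher with GH by its second, of mean level 6.44 (0.66, adjusted p = 0.00132). In the fit over all probe sets, a probe set of Hmgcs1 that was not dim was also higher (0.40, adjusted p = 0.0150). The same held for Sc5d (0.42, adjusted p = 0.0326) and Stard4 (0.37, adjusted p = 0.0313). The brighter probe sets of Hmgcs1, Sc5d and Stard4 did not pass. The 6 calls besides Hsd17b7 were lost without 3 or more of the arrays in turn, and 2 to 3 genes in all passed without 1 of the null arrays. With the arrays centred on their medians the calls were 3 higher and 2 lower, without Tm7sf2 and Scd1, and the higher share of all calls was 61.2% in place of 45.8%. Of the cycling cell markers 4 of 11 fell with GH in null cells, from an array mean of 10.48 to 10.55 down to 10.24 to 10.27, and their part in these results was not tested.

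**Figure D4:**
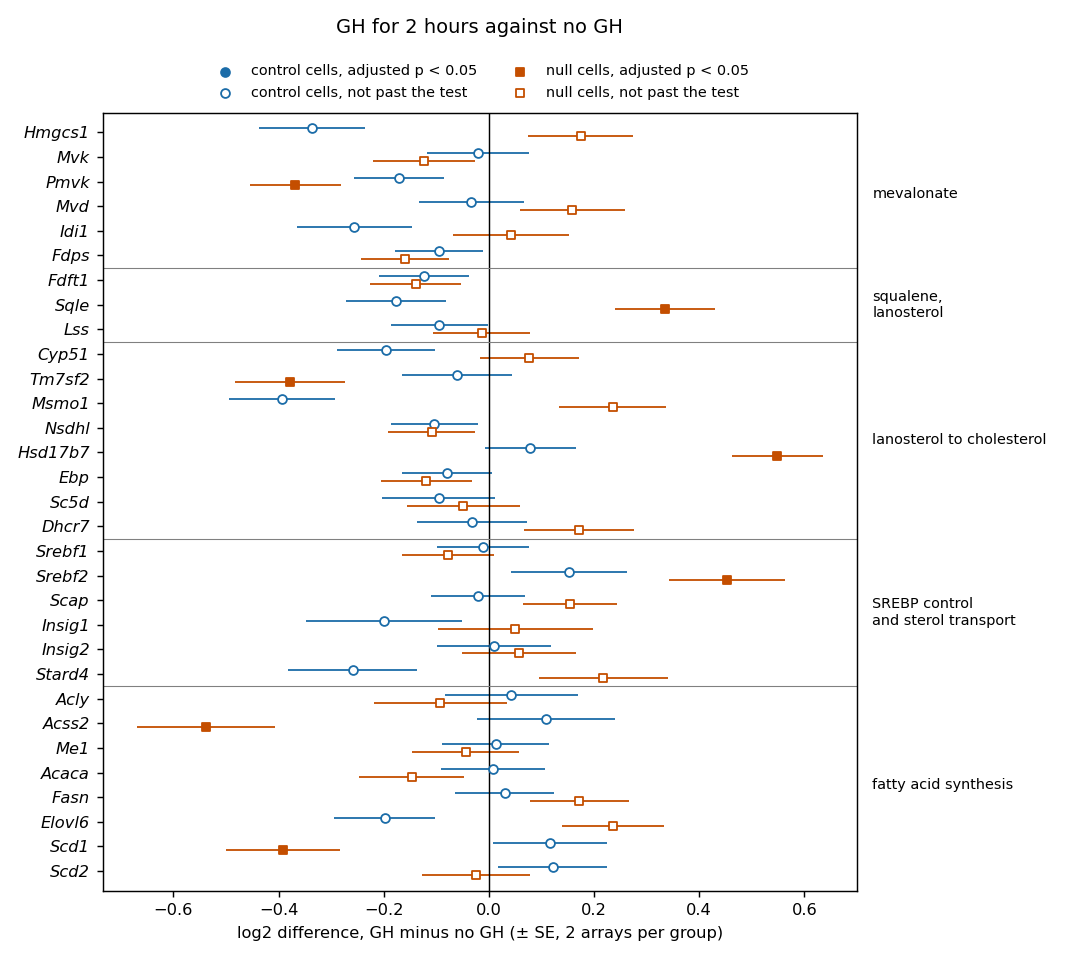
Log2 difference between cells with and without GH for each gene in control cells (circles) and null cells (squares), with SE bars; filled symbols passed limma's test at an adjusted p below 0.05. No control symbol is filled, and 7 null symbols are, with Hsd17b7 farthest to the right and Acss2 farthest to the left.

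The difference between the GH effects, null minus control, was tested as the interaction of genotype and GH. It passed for 2 of 31 genes, both positive, against 5.16% of all genes (2.83% higher, 2.33% lower). Msmo1 fell by 0.39 on the log2 scale in control and stood 0.24 ± 0.10 higher in null cells, neither past the test, and the interaction was 0.63 ± 0.14 (adjusted p = 0.0257). Leaving out control replicate 2 without GH kept the call. Leaving out any other array lost it (0.51 to 0.71, adjusted p up to 0.131). For Hsd17b7 the interaction was 0.47 ± 0.12 (adjusted p = 0.0493), and it was lost when any 1 array was left out (0.42 to 0.52, adjusted p up to 0.204) and with its second probe set (0.45, adjusted p = 0.108). The higher share of all interaction calls was 54.9%, or 69.2% with the arrays centred. Just short of the threshold were Sqle (0.51 ± 0.13, adjusted p = 0.0510), Hmgcs1 (0.51 ± 0.14, adjusted p = 0.0630), Acss2 (-0.65 ± 0.19, adjusted p = 0.0727) and Scd1 (-0.51 ± 0.15, adjusted p = 0.0889). Scap did not pass by its brightest probe set (0.17 ± 0.13) and passed by its second (0.73, adjusted p = 0.0126). In the fit over all probe sets, the fourth brightest of Hmgcs1 passed (0.58, adjusted p = 0.0242), and its brighter ones did not. Of the 6 regulator and transport genes 5 had a positive estimate (6 with the arrays centred), and of the 8 fatty acid genes 6 had a negative one (5 with the arrays centred). Of the 17 cholesterol synthesis enzymes 10 had a positive estimate (14 with the arrays centred). Over all genes 60.5% of estimates were negative, with a median of -0.05 (0.02 with the arrays centred).

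The same comparison was made for genes of neighbouring lipid pathways, against 24.8% of all genes higher and 22.7% lower. In the isoprenoid branch, which uses farnesyl diphosphate for prenylation and dolichol, 3 of 10 genes were higher and 4 lower in null cells without GH (median -0.08). Icmt, which methylates prenylated proteins, was 2.81-fold lower (-1.49 ± 0.11), and Dhdds, a dolichol synthesis subunit, was lower by its brightest probe set (-0.38 ± 0.09) and not by the second (0.08, adjusted p = 0.615). Fnta, a subunit of prenyl transferases, was higher (0.36 ± 0.09). Pggt1b, another such subunit, had the lowest interaction p of the list and did not pass (0.27 ± 0.12, adjusted p = 0.264). Of 22 other fatty acid enzymes, 11 were higher and 6 lower (median 0.28). Tecr, the reductase of very long chain elongation, was 2.82-fold higher (1.5 ± 0.09), the acyl-CoA synthetase gene Acsl3 2.55-fold (1.35 ± 0.10) and the desaturase gene Fads1 2.19-fold (1.13 ± 0.09, its second probe set not past the test), while Fads3, of the same family, was 2.68-fold lower (-1.42 ± 0.10). In glycerolipid synthesis 5 of 18 genes were higher and 4 lower (median -0.01), shares near those over all genes. Lpcat3, which loads phospholipids with polyunsaturated chains, was higher (0.49 ± 0.08), as was Pcyt2 (0.36 ± 0.09), and Lpin3 was lower, at 7.38 and 7.13 in control cells and dim in null cells.

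Of 11 genes for the processing and turnover of SREBP, 6 were higher and 1 lower in null cells without GH (median 0.33). Mbtps2, the protease that frees SREBP from the membrane, was higher (0.67 ± 0.11, adjusted p = 0.000307). The paralogs Erlin1 and Erlin2, whose products bind the SREBP complex, were higher (0.50 ± 0.10) and lower (-0.67 ± 0.09). The Erlin1 call was lost with its second probe set (0.01, adjusted p = 0.940). Fbxw7, which marks released SREBP for degradation, had the lowest interaction p of the list and did not pass (-0.42 ± 0.14, adjusted p = 0.123). Among 10 other known SREBP targets, 4 were higher and 3 lower (median 0.13). Rdh11, a retinol dehydrogenase (0.91 ± 0.12), the desaturase gene Fads2 (0.87 ± 0.09) and Mid1ip1, an activator of acetyl-CoA carboxylase (0.69 ± 0.10), were higher, and Aacs, which makes acetoacetyl-CoA in the cytosol, was lower (-0.44 ± 0.09). The list shares Fads2, Lpin1 and Pcyt2 with those above. In fatty acid oxidation 5 of 17 genes were higher and 4 lower (median 0.18). Etfdh, an electron carrier (1.55 ± 0.09, its second probe set at 0.20), and Acadm, an acyl-CoA dehydrogenase (1.05 ± 0.08), were higher and Cpt1c was lower (-1.17 ± 0.09).

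**Figure D5:**
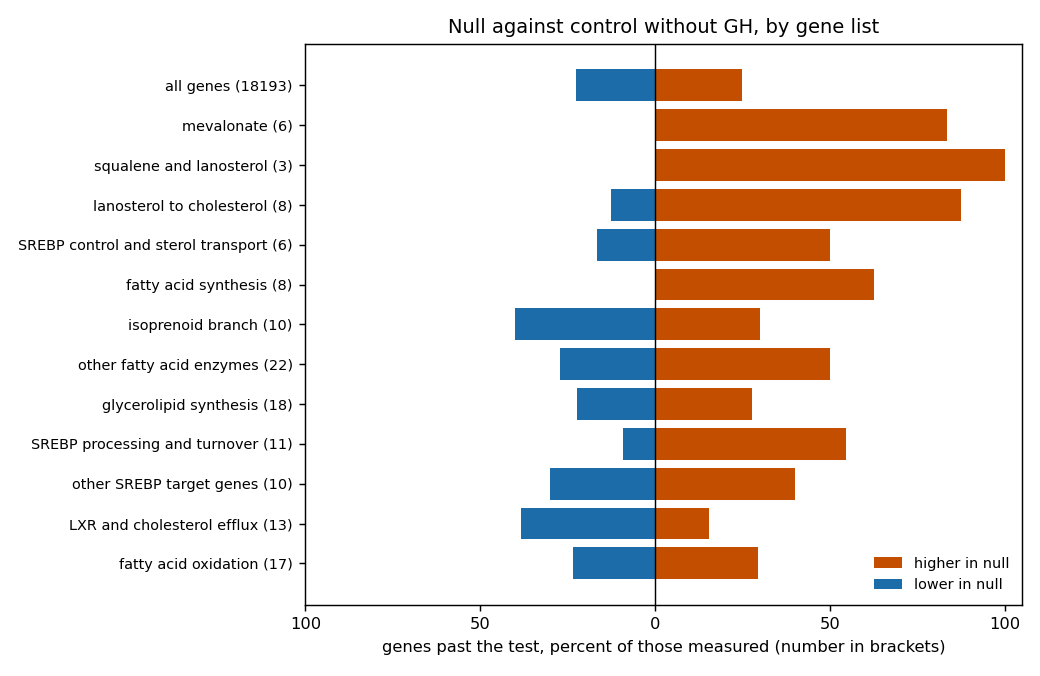
Percent of the measured genes of each list that were higher (right) or lower (left) in null cells without GH against control cells, past limma's test; the number measured is in brackets, and the top bar gives all 18193 genes (24.8% higher, 22.7% lower). The bars of the mevalonate, squalene and lanosterol, and cholesterol groups reach farthest to the right.

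Of 13 genes of oxysterol signalling and cholesterol efflux, 2 were higher and 5 lower in null cells without GH (median 0.01) and 3 were higher and 7 lower with GH (median -0.39). Ch25h makes 25-hydroxycholesterol, an oxysterol known to hold SREBP in the endoplasmic reticulum, and is known for its high expression in activated macrophages. It read 9.50 and 9.67 in control cells without GH, 11.24 and 11.12 with GH, 6.64 and 6.99 in null cells without GH and 9.55 and 9.63 with GH. Null cells were lower in each GH state, and the null arrays with GH lay between the control arrays without it. The differences were -2.77 ± 0.12 without GH (6.82-fold lower, adjusted p = 2.04e-09) and -1.59 ± 0.12 with GH. GH raised the gene 3.03-fold in control and 6.83-fold in null cells, and the interaction passed (1.17 ± 0.17, adjusted p = 0.00150). All 10 macrophage markers were lower in the same null cells (medians -2.56 and -3.05), and their part in this difference was not tested. Mylip, whose product marks lipoprotein receptors for degradation, was 2.24-fold higher in null cells without GH (1.16 ± 0.09), and Cyp7b1, an oxysterol hydroxylase, was higher, at 7.28 and 7.26 on the null arrays, against control arrays close to the dim level.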

How the data were processed

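RNA of 4 groups of mouse embryonic fibroblasts, 2 arrays each, was measured on Affymetrix arrays. The deposited log2 values come from RMA in Partek 6.10.0511, per the submitters' processing notes, and no label gives its settings. Groups and replicate numbers came from the array titles. For 1 null array without GH the title says 2 and the source label 3, and the title was used. Of 45101 probe sets, 64 controls were left out, and 34945 were annotated to 1 gene (932 to several, 9160 to none). Symbols were updated through Entrez identifiers for 34741, and the probe set with the highest mean stood for a gene. limma 3.58.1 in R 4.3.3 fitted 1 mean per group (4 residual and 7.82 prior degrees of freedom), with calls at a Benjamini-Hochberg adjusted p below 0.05 over 18193 genes. The fit was tested on simulated data. Precision is limited by having 2 arrays a group (median residual SD 0.0971). Motifs were searched in RefSeq promoters.

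All 32 members are named, and from each other list the 3 genes with the lowest p without GH and the one with the lowest interaction p. Members and lists were chosen with earlier results of these data known. The alternatives were a replicate block, each array left out, dim genes left out, other probe sets for a gene, 2 further scalings, robust variances, a 1.5-fold threshold, fits on 4 arrays and, for the sterol element, 1 mismatch.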

Additional observations from a re-analysis of the deposited data

Results flagged for a closer look

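The interaction test in limma, which compares the response to GH between the genotypes, passed for 5 of the genes named, 2 of them among the 31 synthesis genes. The other 3 were named for the lowest interaction p of their list, so their count says nothing of those lists, and 5.16% of all genes passed. Each value is the GH effect in null cells minus that in control cells on the log2 scale. Msmo1 (0.63, adjusted p = 0.0257) and Hsd17b7 (0.47, adjusted p = 0.0493) are cholesterol synthesis genes. When each array was left out in turn, the Msmo1 call held in 1 of 8 fits and the Hsd17b7 call in 0 of 8. Ch25h, the oxysterol enzyme gene, gave 1.17 (adjusted p = 0.00150), rising in both genotypes, and this call held when any 1 array was left out (1.00 to 1.35). Lpin2, a phosphatidate phosphatase gene of glycerolipid synthesis, gave 0.60 (adjusted p = 0.0135). It read 9.62 and 9.67 in control cells without GH, 9.73 and 9.71 with GH, 9.75 and 9.83 in null cells without GH and 10.43 and 10.49 with GH, so that the null arrays with GH alone stood apart. Its call was lost without control replicate 3 with GH, null replicate 2 without GH or null replicate 3 with GH (0.56 to 0.59, adjusted p up to 0.0637). Pdk4, a kinase gene that restrains glucose oxidation, gave -1.27 (adjusted p = 0.0302). It read 7.94 and 8.33 in control cells without GH, 8.89 and 8.56 with GH, 7.45 and 7.93 in null cells without GH and 7.33 and 6.70 with GH, and its call was lost without control replicate 2 of either GH state or null replicate 3 of either GH state (smallest difference -0.95, adjusted p up to 0.149). The Pdk4 call was also lost with repeated quantile normalization (adjusted p = 0.0503) and with trended, robust variances (adjusted p = 0.0667).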

How the results depend on the processing

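The number of genotype calls moved little with the processing, apart from the 1.5-fold threshold, and the number of GH calls moved a good deal. Some single genes gained or lost a genotype call although the totals stayed close. Leaving out each array in turn gave 24 to 25 genes called for null against control without GH, 21 to 24 with GH, 0 to 1 for GH in control cells, 2 to 7 for the GH effect in null cells and 0 to 2 for the interaction test. A threshold of 1.5-fold called 15 genes without GH in the genotype comparison, 0 for the GH effect in null cells and 0 for the interaction test. Over all 18193 genes it called 2605, 145 and 90. The mean of a gene's probe sets called 10 genes for the GH effect in null cells, 6 higher and 4 lower. Over all genes that setting called 2357 for this effect. For GH in control cells, 1 gene passed with dim genes left out and 2 with trended, robust variances. Over all genes 493 of 13645 and 579 of 18193 passed. The interaction gave 1 gene with the replicate block, 5 with dim genes left out, 4 with the mean of a gene's probe sets, 1 with the second brightest probe set, 4 with the arrays centred on their medians and 7 with trended, robust variances. In the same order, these settings called 754, 1125 (of 13645), 1045, 710, 1008 and 1252 of all genes. The main fit called 938. With the second brightest probe set, which is dim for Fdps, that gene's difference without GH was -0.13, and Dhdds gave 0.0815. The 1-mismatch search found the sterol element in 11 of 26 members, against 28.5% of array genes. Same-numbered arrays did not deviate together (correlations from -0.28 to 0.13), so the numbers were not treated as pairs, and the replicate block left 24 genes called with GH and 5 for the GH effect in null cells, without Sqle (adjusted p = 0.0612) and Scd1 (adjusted p = 0.0538). It also ended the Hsd17b7 interaction call (adjusted p = 0.0811). Over all genes the block called 7957 for null against control with GH and 1713 for the GH effect in null cells.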
